A study of Mus musculus with 6 samples.

Results

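The genes described here are 37 members of sugar breakdown and oxygen response: the steps of glycolysis, sugar and lactate transporters, the enzymes that decide the fate of pyruvate, the pentose phosphate branch, and the hypoxia-inducible factor HIF-1α with its regulators and targets. They were chosen by name, as pathway steps and HIF targets, and 31 of the 37 were measured by a probe set annotated to that gene alone, of 22180 genes measured in all. Of the 6 others, Aldoa, Tkt and Bnip3l lie on probe sets that carry a second symbol, and Gpi1, Eno1 and G6pdx had no probe set under those names, so no value is given for them.

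Expression was measured in whole spleen of mice aged 1 year, with 1 Affymetrix array per spleen and 3 spleens per group. The DX2 mice (genotype CAG-rtTA; TRE DX2/+) held rtTA, an activator that works when doxycycline is bound, driven by the broadly active CAG promoter, and a TRE transgene for DX2, a shortened splice form of the scaffold protein AIMP2. The control littermates (genotype 0; TRE DX2 /+) had the TRE transgene and no rtTA. Mice of both groups were given pellets with doxycycline (6.25 mg/kg) from 8 weeks of age, so an effect of DX2 and one of rtTA cannot be told apart. The comparison asks which spleen transcripts differed when DX2 was overexpressed. The labels call the spleens biological replicates. All values are log2 expression values, differences are DX2 minus control, and a gene is said to pass where its limma p, adjusted by Benjamini-Hochberg over all 22180 genes, was under 0.05.

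Glycolysis splits glucose into pyruvate in the cytosol. Hexokinases trap the sugar, phosphofructokinase commits it, and the lower steps return ATP before pyruvate goes to lactate or into mitochondria. The pentose phosphate branch draws off glucose 6-phosphate to make NADPH and ribose. When oxygen is short, prolyl hydroxylases (the Egln genes) stop marking HIF-1α for destruction, and HIF-1α raises transcription of glucose transporters and many glycolytic genes. In spleen, these pathways serve dividing lymphocytes and erythroid precursors, activated myeloid cells and red cells, which lack mitochondria and live on glycolysis.

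Facts of the whole series bear on what follows. Xist and the Y-linked transcripts marked 2 control spleens (controls 1 and 2) as female and the 4 other spleens as male. All DX2 spleens were thus male, and control 3 was the only male control. In a fit with a term for sex, the difference is therefore the DX2 mean minus control 3 alone. Every value given below with sex in the fit rests on that single control spleen, and the female controls add only to the estimate of spread. The B cell markers that spleen is known for had list means of 9.94 to 10.34 in control and 8.14 to 8.92 in DX2 spleens, which describes the arrays and is no test of tissue identity. Marker lists differed by group. All 9 measured erythroid markers (of 14 listed) had a higher mean in DX2, with list means of 7.37 to 9.52 against 6.36 to 8.01 in control. All 11 measured cell cycle genes were higher (8.22 to 8.98 against 7.02 to 8.03), and all 8 measured B cell markers were lower. The part of these lists in the members' values was not tested. In whole tissue, fewer cells of a type and less RNA per cell cannot be told apart.

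None of the 31 measured genes passed, against 0.316% of all genes (limma, Benjamini-Hochberg), and the members' adjusted p lay between 0.128 and 0.971. Most of them were nonetheless higher on average in DX2 spleens. The difference was above 0 for 25 of 31 members, against 51.6% of all genes, and its median was 0.28 on the log2 scale against 0.01 over all genes. At an unadjusted p under 0.05 there were 8 members (Hk1, Hk3, Pfkl, Pfkm, Tpi1, Pdk3, Pgd and Taldo1), all higher in DX2, against 16.0% of all genes in either direction, 8.13% higher and 7.82% lower. With a term for sex, 3 members (Hk3, Ldhb and Pdk1) had such a p, against 8.85% of all genes. Without control 1 there were 3 (11.4% of all genes) and without control 3 there were 5 (11.9%). With the replicate number as a block there were 7 (13.3%). The 3 DX2 values lay wholly above the 3 control values for 8 members and wholly below for 0, where the shares over all genes were 10.7% and 11.2%, or 22.0% together. Centring each array on its median moved the share of all genes with a difference above 0 to 68.0%, with 27 of 31 members, and a second quantile normalization moved it to 61.8%, with 25 of 31. With array weights 21 of 31 members were higher (51.2% of all genes) and their median was 0.17, and with a term for sex 23 were higher (54.0%) and the median was 0.32.

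The DX2 spleens differed from one another more than the control spleens did. The SD among DX2 spleens had a median of 0.48 over the members, against 0.17 over all genes, while among control spleens it was 0.14 for both. The spleen DX2 2 held the highest of the 6 values for 19 of 31 members, against 22.9% of all genes. DX2 1 did so for 8 members (17.5%) and DX2 3 for 1 (14.2%). DX2 2 lay above all 3 controls for 22 members (33.9% of all genes), DX2 1 for 17 (29.5%) and DX2 3 for 13 (31.1%). They lay below all 3 controls for 3 members (28.4%), 6 members (32.3%) and 7 members (29.7%), in the same order. DX2 1 held the lowest of the 6 values for 6 members (20.8%): Slc2a1, Pfkp, Pfkfb3, Eno3, Hif1a and Vegfa. Without DX2 2, the median difference of the members was 0.12 and 19 of 31 were higher (49.0% of all genes in that fit). Without DX2 1 or without DX2 3, 26 of 31 were higher (52.7% and 51.9%). In the fit without DX2 2, 9 members had an unadjusted p under 0.05 (18.2%), and 2 members passed, Hk1 and Pfkm, against 1.67% of all genes.

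**Figure D1:**
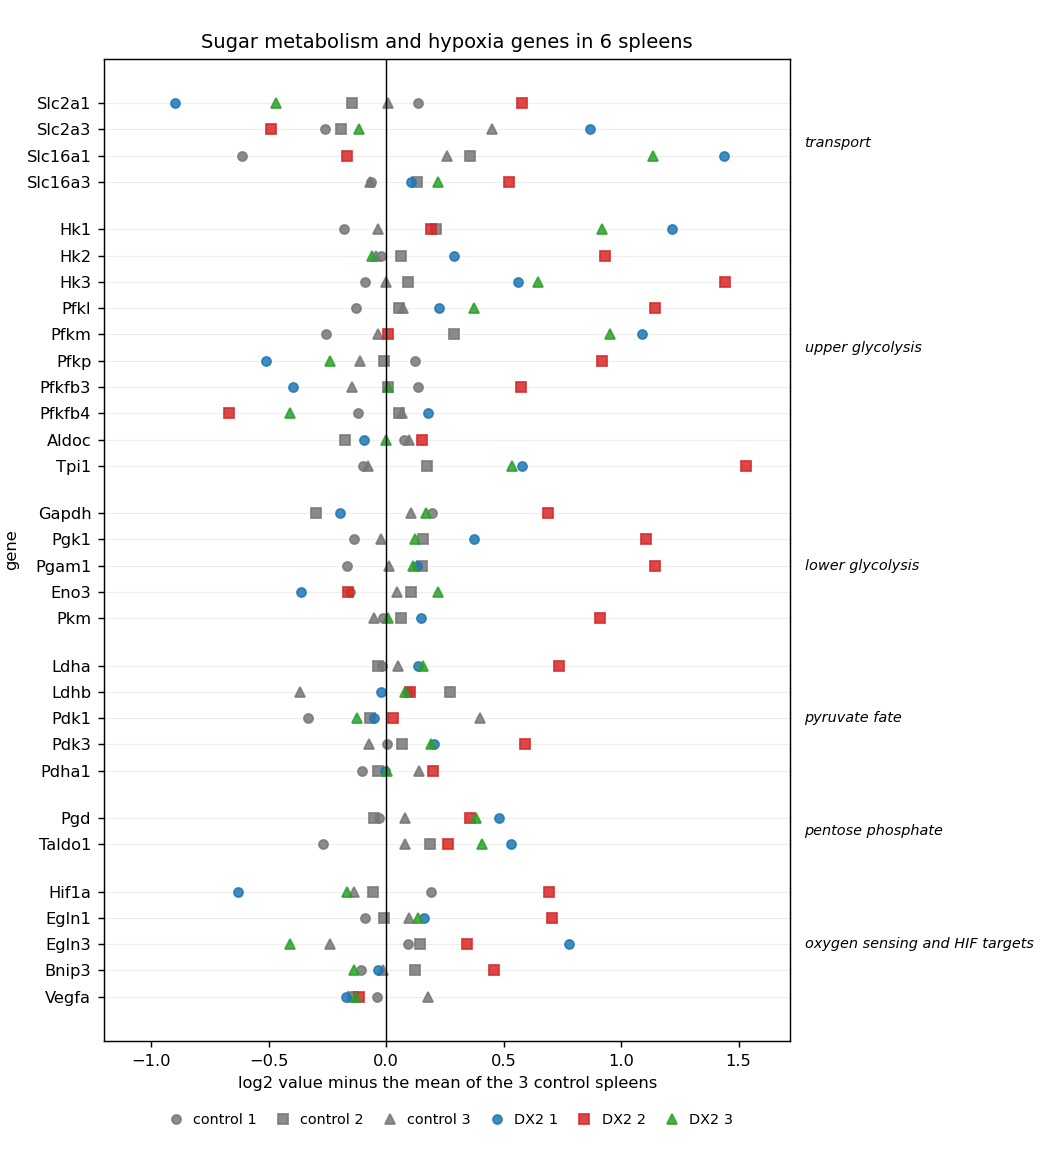
Log2 value of each of the 31 measured genes minus the mean of the 3 control spleens (horizontal axis), 1 row per gene, grouped by role; each point is 1 spleen. The red squares of DX2 2 sit farthest right for 19 genes, while Slc16a1, Hk1 and Pfkm are highest in DX2 1 and DX2 3.

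**Figure D2:**
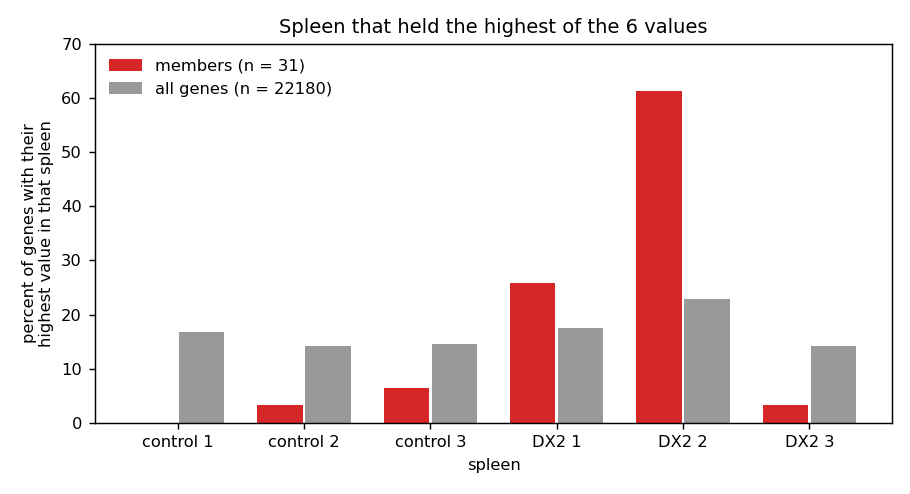
Percent of genes (vertical axis) whose highest value lay in each of the 6 spleens, for the 31 members and for all 22180 genes. DX2 2 held the highest value for 61.3% of the members and 22.9% of all genes, and control 1 for 0 members.

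Of the 4 sugar and lactate transporters 3 had a higher mean in DX2 (median difference 0.19), none with an unadjusted p under 0.05. Slc2a1, the glucose transporter GLUT1 of many dividing cells, read 8.28, 8.00 and 8.15 in controls 1, 2 and 3 and 7.25, 8.72 and 7.67 in DX2 1, 2 and 3. Its highest and its lowest value were thus both in DX2 spleens, and the difference was -0.26 (SE 0.34). Without DX2 2 it was -0.68, with an adjusted p of 0.0835 (limma), and its second, dimmer probe set differed by -0.10. The T cell markers, all 7 measured ones lower on average in DX2, likewise had their lowest list mean in DX2 1 (6.81) and their highest in DX2 2 (8.48), against 7.95 to 8.35 in control. Their part in the order of Slc2a1 was not tested. Slc2a3, the high-affinity glucose transporter GLUT3, had the opposite order among DX2 spleens, with 7.65 in DX2 1 and 6.29 in DX2 2, around a difference of 0.09 (SE 0.35).

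Of the lactate carriers, the monocarboxylate transporter Slc16a1 had the larger difference, 0.80 (SE 0.44, 1.74-fold). Controls 1, 2 and 3 read 7.62, 8.59 and 8.49, and DX2 1, 2 and 3 read 9.67, 8.07 and 9.37, so DX2 2 lay inside the control range. The difference was 1.29 without DX2 2 (adjusted p = 0.0716 by limma), 0.48 without DX2 1 and 0.50 without control 1. Slc16a3, the lactate exporter of glycolytic cells, had the smallest unadjusted p of the transporters (0.080). It read 5.66, 5.85 and 5.65 in controls and 5.82, 6.24 and 5.94 in DX2 1, 2 and 3, a difference of 0.28 (SE 0.14), or 0.16 without DX2 2. DX2 1 fell between the control values.

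The upper steps of glycolysis, from glucose to triose phosphate, held the largest differences among the members, at Hk3 and Tpi1. Of 10 measured genes 9 were higher in DX2, against 51.6% of all genes (median difference 0.48). Of the 10, 5 were higher at an unadjusted p under 0.05, against 8.13% of all genes, and none passed. Hk3, the hexokinase of myeloid cells, read 5.90, 6.08 and 5.99 in controls 1 to 3 and 6.55, 7.43 and 6.64 in DX2 1 to 3. Every DX2 value was above every control value, with DX2 2 the highest. The difference was 0.88 (SE 0.23, 1.84-fold, adjusted p = 0.137 by limma), and it was 0.60 without DX2 2. The neutrophil markers, which share Hk3's myeloid lineage, had a higher mean in DX2 for 12 of 13 genes. Their list means were 8.87, 7.14 and 7.26 in DX2 1, 2 and 3 and 6.84 to 7.81 in control, so only DX2 1 lay above the control range. In DX2 1, 12 of the genes were above all 3 controls, and in DX2 2 and DX2 3 the count was 0. The red pulp macrophage list was higher in every DX2 spleen (8.93, 8.84 and 8.81, against 8.22 to 8.46 in control), 11 of its 13 genes having a positive difference, and its part in the Hk3 result was not tested.

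Tpi1, the isomerase that joins the branches formed by aldolase, differed as much as Hk3. Its values were 7.85, 8.12 and 7.87 in controls and 8.52, 9.48 and 8.48 in DX2 1, 2 and 3. The groups did not overlap, and DX2 2 was again far above the other DX2 spleens. The difference was 0.88 (SE 0.26, 1.84-fold, adjusted p = 0.177 by limma), or 0.56 without DX2 2.

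Pfkl, the liver-type subunit of phosphofructokinase, read 6.45, 6.63 and 6.65 in controls and 6.80, 7.72 and 6.95 in DX2 1, 2 and 3. The groups did not overlap here either, with a difference of 0.58 (SE 0.23). It was 0.30 without DX2 2, at an unadjusted p of 0.053. Hk2, the inducible hexokinase, read 7.02 in DX2 2 and 6.03 to 6.37 in the other DX2 spleens, the latter span including the control range of 6.04 to 6.15. Its difference was 0.39 (SE 0.23), and 0.12 without DX2 2.

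Hk1 and Pfkm, picked out here after their values were seen, had another order among DX2 spleens. Hk1, the hexokinase used by red cells and most tissues, read 7.08, 7.47 and 7.22 in controls and 8.48, 7.45 and 8.18 in DX2 1, 2 and 3. Pfkm, the muscle-type phosphofructokinase subunit that red cells also use, read 4.91, 5.45 and 5.13 in controls and 6.25, 5.17 and 6.11 in DX2 1, 2 and 3. For both genes DX2 2 lay inside the control range and the other DX2 spleens lay clear above it. The differences were 0.77 (SE 0.26, adjusted p = 0.211) for Hk1 and 0.68 (SE 0.29, adjusted p = 0.308) for Pfkm in limma's fit to all 6 spleens. Without DX2 2 they were 1.07 (adjusted p = 0.042 by limma) and 1.02 (adjusted p = 0.047 by limma), both past the threshold. In that fit 1.67% of all genes passed, against 0.316% with all 6 spleens. The 2 passes are no test, since DX2 2 was the lowest DX2 spleen for both genes and leaving it out had to enlarge the differences. With sex in the fit to all 6 spleens they were 0.81 (adjusted p = 0.619) and 0.72 (adjusted p = 0.698).

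The erythroid markers had the same order over the DX2 spleens as Hk1, Pfkm and Slc16a1. The mean of the 9 erythroid markers read 6.36, 8.01 and 7.92 in controls 1, 2 and 3 and 9.52, 7.37 and 9.23 in DX2 1, 2 and 3. Klf1, the transcription factor that directs red cell maturation, read 9.18, 7.16 and 9.02 in DX2 1, 2 and 3. Control 1 was the lowest spleen for the erythroid list and also for Hk1, Pfkm and Slc16a1. This order was not particular to the erythroid list. In DX2 1, 2 and 3 the cell cycle list had means of 8.98, 8.22 and 8.85. The platelet list had 9.89, 7.71 and 8.25 and the neutrophil list 8.87, 7.14 and 7.26. Control 1 was the lowest spleen for each of these lists as well. The part of any of these lists in these results was not tested.

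**Figure D3:**
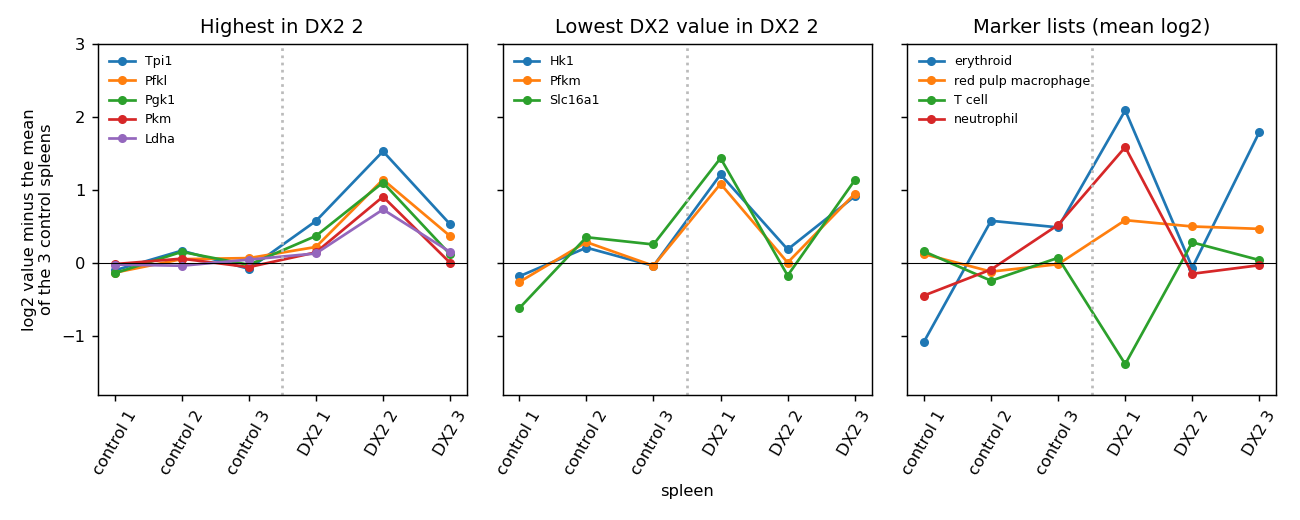
Log2 value minus the mean of the 3 control spleens (vertical axis) in each of the 6 spleens (horizontal axis) for 5 genes highest in DX2 2, for Hk1, Pfkm and Slc16a1, and for the mean of 4 marker lists; lines join values of 1 gene or list and imply no order of the spleens. The middle panel and the erythroid list peak in DX2 1 and DX2 3 and return to the control range in DX2 2, and the left panel peaks in DX2 2. The cell cycle and platelet lists, not drawn, had the same order of DX2 spleens as the erythroid list.

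Pfkp, the platelet-type phosphofructokinase subunit, differed by 0.06 (SE 0.34) and Pfkfb3, which makes the activator fructose 2,6-bisphosphate, by 0.06 (SE 0.23). Both were highest in DX2 2 (9.07 and 7.57) and lowest in DX2 1 (7.64 and 6.60), outside the control ranges on either side, and without DX2 2 the differences were -0.38 and -0.20. Pfkfb4, of the same family as Pfkfb3, was the only upper gene lower in DX2, with means of 5.98 ± 0.43 against 6.28 ± 0.10 (SD, n = 3 each) and its lowest value in DX2 2. That difference of -0.30 (SE 0.21) was the largest below 0 among the 31 members. It was -0.54 without DX2 1 (unadjusted p = 0.0062, adjusted p = 0.152 by limma) and -0.12 without DX2 2. Aldoc, an aldolase best known from brain, read 5.32 ± 0.13 in DX2 and 5.30 ± 0.15 in control (SD, n = 3 each).

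Genes of the lower steps were highest in DX2 2 for 4 of the 5 measured. Of the 5, 4 had a higher mean in DX2 (median difference 0.36), none with an unadjusted p under 0.05. Pgk1, the X-linked kinase that makes the first ATP, had the smallest p (0.062). It read 8.35, 8.65 and 8.47 in controls and 8.86, 9.59 and 8.61 in DX2 1, 2 and 3, and DX2 3 lay inside the control range. The difference was 0.53 (SE 0.24), 0.55 (unadjusted p = 0.188) with sex in the fit and 0.25 without DX2 2.

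Pkm, pyruvate kinase, had a value of 10.30 in DX2 2, with 9.54 and 9.40 for the other DX2 spleens and 9.34 to 9.46 for controls. Pgam1, phosphoglycerate mutase, was at 8.49 in DX2 2, at 7.48 and 7.47 in the other DX2 spleens and at 7.18 to 7.50 in controls. Their differences were 0.36 (SE 0.23) and 0.46 (SE 0.27), and 0.08 and 0.12 without DX2 2. Gapdh, often used as a reference transcript, read 11.33, 10.84 and 11.25 in controls and 10.94, 11.83 and 11.31 in DX2 1, 2 and 3. Its difference of 0.22 (SE 0.24) was -0.01 without DX2 2. Eno3, the muscle-type enolase, differed by -0.10 (SE 0.17), with DX2 1 and DX2 2 below the control range of 7.46 to 7.72 and DX2 3 above it.

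Gapdh, Pgk1, Tpi1, Ldha, Pkm and Pgam1 have processed pseudogene copies in the genome, so part of their signal may come from near-identical sequence. The 3 probe sets of Gapdh differed by 0.22, 0.24 and 0.12, and the 2 of Pgam1 by 0.46 and 0.24.

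Of the 5 measured genes that decide the fate of pyruvate, 2 (Ldha and Pdk3) had no overlap between groups. Over all genes the share without overlap was 22.0%, or 10.7% with DX2 higher. Ldha, the lactate dehydrogenase subunit favoured in glycolytic cells, read 5.91, 5.89 and 5.97 in controls and 6.06, 6.66 and 6.08 in DX2 1, 2 and 3. The gap between groups was narrow outside DX2 2, and the difference of 0.34 (SE 0.17, adjusted p = 0.393 by limma) became 0.15 without that spleen. Pdk3, an X-linked kinase that switches off pyruvate dehydrogenase, read 7.49, 7.55 and 7.41 in controls and 7.69, 8.07 and 7.68 in DX2 1, 2 and 3. Its difference was 0.33 (SE 0.14, adjusted p = 0.301 by limma), 0.40 with sex in the fit and 0.20 without DX2 2.

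The remaining genes of this group did not separate. Ldhb, the heart-type lactate dehydrogenase subunit, differed by 0.05 (SE 0.17), Pdha1, a subunit of pyruvate dehydrogenase, by 0.07 (SE 0.12), and Pdk1, a HIF target in many cells, by -0.05 (SE 0.19). For Ldhb and Pdk1 control 3 stood away from the other controls, at 5.02 against 5.48 and 5.66 for Ldhb and at 7.26 against 6.53 and 6.79 for Pdk1. Control 3 is the only male control, so with sex in the fit the DX2 mean is set against control 3 alone. The differences of Ldhb and Pdk1 were then 0.42 and -0.45.

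Both measured pentose phosphate enzymes were higher in every DX2 spleen than in any control. Over all genes that share was 10.7%, and of 8 other pentose phosphate genes, described further below, it held for 1. The spread was small for Pgd (control SD 0.07) and larger for Taldo1 (control SD 0.24). Pgd, which makes NADPH and ribulose 5-phosphate, read 8.13, 8.11 and 8.24 in controls and 8.64, 8.51 and 8.54 in DX2 1, 2 and 3. No DX2 value came near the controls, and DX2 2 was not the highest. The difference of 0.41 (SE 0.10, 1.32-fold) had the smallest p of all members, 0.0047 unadjusted and 0.128 adjusted (limma), and it ranged only from 0.37 to 0.45 when any 1 spleen was left out.

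Taldo1, transaldolase, which returns pentose carbon to glycolysis, read 7.83, 8.29 and 8.18 in controls and 8.63, 8.36 and 8.51 in DX2 1, 2 and 3. The groups did not overlap, though DX2 2 lay close above control 2. The difference was 0.40 (SE 0.15, adjusted p = 0.250 by limma), 0.27 without control 1 and 0.32 with sex in the fit. With sex in the fit the difference of Pgd was 0.33 (unadjusted p = 0.071).

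**Figure D4:**
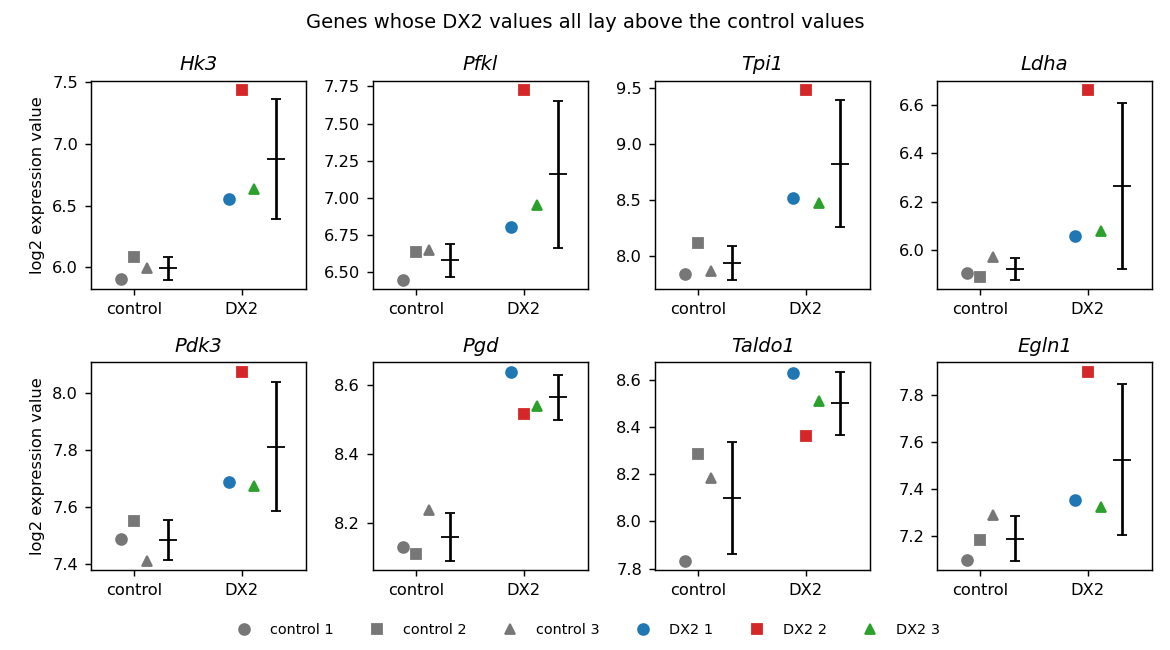
Log2 expression value (vertical axis, with its own range in each panel) of the 8 genes whose 3 DX2 values all lay above the 3 control values; points are spleens, and the bar beside them is the mean with the SD (n = 3). DX2 2 is the highest for 6 of the 8, and DX2 1 for Pgd and Taldo1.

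Oxygen sensors and HIF targets were split in direction. Of 5 measured genes 3 were higher in DX2 (median difference 0.10), with none at an unadjusted p under 0.05. Hif1a, the oxygen-regulated subunit, read 9.03, 8.79 and 8.70 in controls and 8.21, 9.53 and 8.68 in DX2 1, 2 and 3. As for Slc2a1 and Pfkp, the highest and lowest values were both in DX2 spleens, and the difference was -0.03 (SE 0.31), its control and DX2 means being 8.84 and 8.81.

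Egln1, the main prolyl hydroxylase that marks HIF-1α and itself a HIF target, was the only 1 of the 5 measured genes without overlap between groups. Over all genes the share without overlap was 22.0%, or 10.7% with DX2 higher. It read 7.10, 7.18 and 7.29 in controls and 7.35, 7.90 and 7.33 in DX2 1, 2 and 3. DX2 1 and DX2 3 were barely above control 3. The difference was 0.33 (SE 0.17, adjusted p = 0.394 by limma), and 0.15 without DX2 2.

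Egln3, a hydroxylase strongly induced by HIF in many cells, differed by 0.24 (SE 0.28), with DX2 values from 5.09 to 6.27 on both sides of the control range of 5.26 to 5.64. Bnip3, a HIF target that promotes the clearance of mitochondria, differed by 0.10 (SE 0.17). Vegfa, the angiogenic growth factor induced by HIF, was slightly lower, at 7.06 ± 0.03 in DX2 and 7.19 ± 0.16 in control (SD, n = 3 each), a difference of -0.14 (SE 0.12). It was -0.05 without control 3 and -0.32 with sex in the fit.

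Paralogs that share a step were compared within each spleen. For 10 pairs, the log2 difference between the paralogs was set against genotype by an exact two-sided permutation test over the spleens, which with 3 against 3 cannot go below p = 0.10. Levels of different probe sets cannot be compared, so only the shift between groups is read. The groups did not overlap for 1 pair. The log2 value of Pfkl minus that of Pfkp was -1.58 ± 0.22 in control and -1.05 ± 0.26 in DX2 spleens (SD, n = 3 each), a shift of 0.53 (exact permutation p = 0.10, 1.00 after adjustment over the 10 pairs). The lactate dehydrogenase pair Ldha and Ldhb shifted by 0.29 (exact permutation p = 0.40), and Hk1 and Hk2 by 0.39 (exact permutation p = 0.40). The count of pairs without overlap was 5 without DX2 2, 3 without DX2 1 and 2 without control 1 or control 3, but groups of 3 and 2 separate more easily than groups of 3 and 3, so these counts are not comparable with the first.

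**Figure D5:**
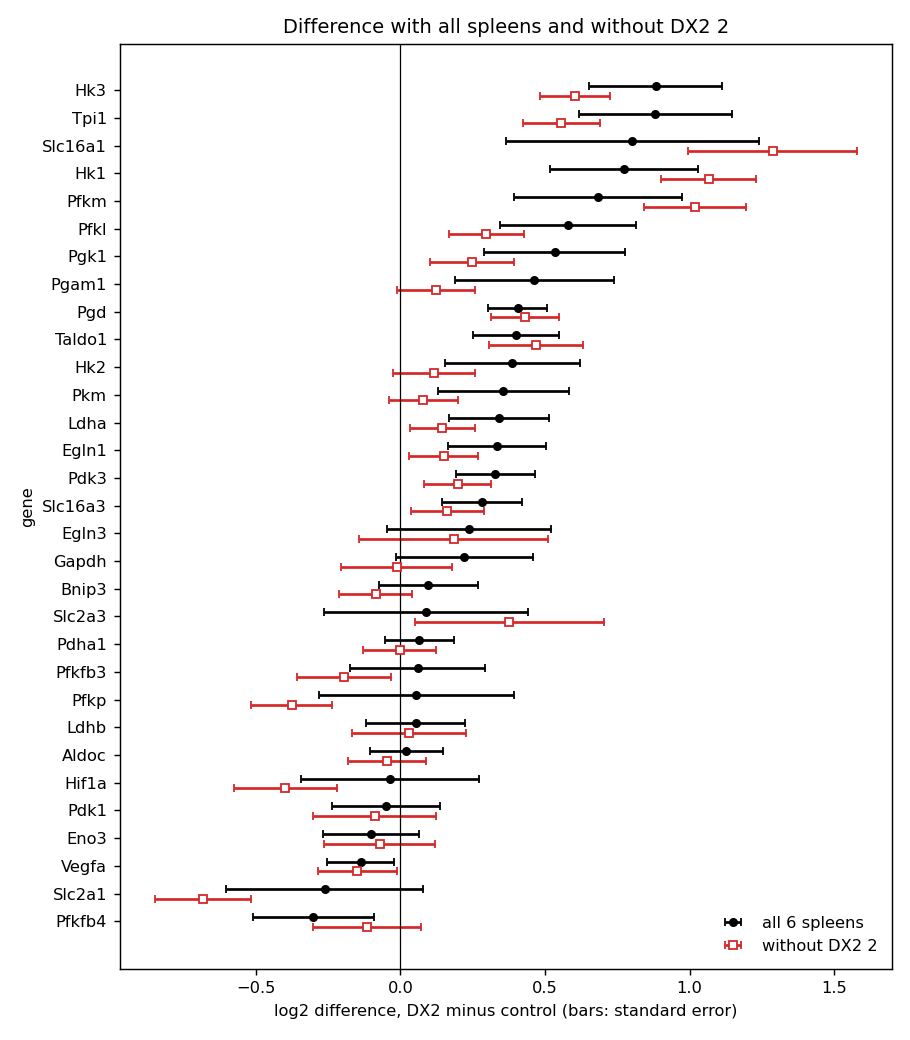
Log2 difference, DX2 minus control, for each of the 31 genes with all 6 spleens (black) and without DX2 2 (red, 3 control against 2 DX2 spleens); bars are the standard error from limma. Without DX2 2, Hk1 and Pfkm are at 1.07 and 1.02, Tpi1 and Hk3 are at 0.56 and 0.60, and Pfkp turns from 0.06 to -0.38.

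The promoters of genes with contrasting orders over the spleens are printed to show which carry the short sequences associated with HIF and with the erythroid GATA factors. RefSeq's table (build GRCm38.p6) held 35 of the 37 genes, all but Slc2a3 and Bnip3l, and the window taken was the 250 bases before the most upstream start listed. The core of a HIF site was searched as ACGTG on both strands; it is also contained in CACGTG, the E-box bound by MYC and USF, which counts once on each strand. ACGTG was present in 15 of 35 members' windows (42.9%) and in 16.5% of all 27025 genes' windows, and CACGTG in 5 of 35 (14.3%) and in 6.04%. The variant core GCGTG was present in 20 of 35 (57.1%) and in 28.3% of all. The members were chosen in part as HIF targets, so these shares beside those of all genes are a description and no test. Ldha, Pgk1 and Tpi1 were each highest in DX2 2 and held 5, 2 and 0 matches to ACGTG, shown in capitals, the 5 of Ldha including 2 copies of CACGTG.
Ldha, chr7:46845554-46845803, plus strand: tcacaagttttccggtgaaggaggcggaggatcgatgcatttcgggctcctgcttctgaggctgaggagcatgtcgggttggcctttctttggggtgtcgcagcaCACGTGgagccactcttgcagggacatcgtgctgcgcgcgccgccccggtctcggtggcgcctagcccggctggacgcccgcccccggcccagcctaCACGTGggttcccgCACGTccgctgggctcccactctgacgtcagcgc
Pgk1, chrX:106186850-106187099, plus strand: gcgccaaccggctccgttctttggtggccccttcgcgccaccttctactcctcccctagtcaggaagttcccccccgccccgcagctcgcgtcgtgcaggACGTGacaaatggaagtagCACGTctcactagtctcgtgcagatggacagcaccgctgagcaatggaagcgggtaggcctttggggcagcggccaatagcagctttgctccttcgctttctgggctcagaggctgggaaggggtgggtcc
Tpi1, chr6:124814159-124814408, minus strand: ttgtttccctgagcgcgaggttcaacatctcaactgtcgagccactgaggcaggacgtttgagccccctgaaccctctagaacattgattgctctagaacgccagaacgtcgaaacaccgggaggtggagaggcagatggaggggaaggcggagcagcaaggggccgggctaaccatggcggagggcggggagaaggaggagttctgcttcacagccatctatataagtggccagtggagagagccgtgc
GATA motifs were searched on both strands as AGATAA or AGATAG and as TGATAA or TGATAG, which do not overlap with ACGTG, and were present in 8 of 35 members' windows (22.9%) and in 27.1% of all genes' windows. Pfkm and Slc16a1, high in the spleens with high erythroid markers, held 3 and 1 matches, in capitals, and Hk1 held 0 in its window. Gapdh and Pkm, both highest in DX2 2, held 1 match each, as did Pfkfb4 and Vegfa, both lower on average in DX2. Aldoa and G6pdx, which have no value here, held 2 and 1. The matches thus did not follow the order over the spleens. Pfkm and Slc16a1 also held 2 matches each to ACGTG, from 1 CACGTG each, left in lower case here, which is as many as Pgk1 and more than Tpi1. The array does not show which start was used.
Pfkm, chr15:98092339-98092588, plus strand: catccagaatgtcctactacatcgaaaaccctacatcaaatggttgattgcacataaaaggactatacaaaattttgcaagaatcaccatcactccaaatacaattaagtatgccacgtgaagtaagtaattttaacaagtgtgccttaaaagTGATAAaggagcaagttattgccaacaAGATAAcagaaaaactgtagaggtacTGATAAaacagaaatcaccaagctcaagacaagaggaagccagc
Slc16a1, chr3:104638414-104638663, plus strand: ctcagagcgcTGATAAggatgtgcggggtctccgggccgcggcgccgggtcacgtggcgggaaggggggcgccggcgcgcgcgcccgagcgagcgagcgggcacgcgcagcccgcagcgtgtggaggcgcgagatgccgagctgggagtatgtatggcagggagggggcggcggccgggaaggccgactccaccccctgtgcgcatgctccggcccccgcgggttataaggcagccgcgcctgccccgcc
These matches describe the letters of the windows and are not evidence of binding.

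Genes of the same pathways outside the 37 were described from a list drawn up with them, and 68 of 76 were measured. None passed (limma, Benjamini-Hochberg), 13 had an unadjusted p under 0.05, 12 of them higher in DX2, against 16.0% and 8.13% of all genes, and 43 of 68 were higher, against 51.6%. The groups did not overlap for 15 of the 68, against 22.0% of all genes. DX2 was higher for 12 of these and lower for 3, against 10.7% and 11.2% of all genes. The 3 lower ones (2 glycolytic, 1 of the hypoxia list) were not among the genes of smallest p named below. Genes of the other hypoxia list were higher for 23 of 30 (median difference 0.22). The list as drawn up holds HIF subunits and regulators, such as Epas1, Arnt, Egln2 and Vhl, beside hypoxia-responsive genes. It also includes Tfrc and Hmox1, which are also erythroid and macrophage markers. Angptl4, a lipase inhibitor induced by hypoxia and by fatty acids, read 5.76, 6.08 and 5.94 in controls and 6.57, 7.05 and 7.16 in DX2 1, 2 and 3. Its difference of 1.00 (SE 0.18, adjusted p = 0.075 by limma) was present in each DX2 spleen and was 0.94 without DX2 2.

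Ak4, a mitochondrial adenylate kinase and HIF target, read 4.50, 4.55 and 4.49 in controls and 4.98, 5.30 and 5.02 in DX2 1, 2 and 3, a difference of 0.59 (SE 0.12, adjusted p = 0.093 by limma). The collagen prolyl hydroxylases P4ha1 and P4ha2 differed by 0.55 (SE 0.16) and 0.32 (SE 0.13), without overlap between groups. Ak4 and P4ha2 were dim, both among the 40% dimmest genes, and so were absent from the fit that removed those. Pgm2, a mutase of sugar phosphates, differed by 0.46 (SE 0.14), also without overlap. Mxi1, an antagonist of MYC, read 6.83, 7.33 and 7.03 in controls and 8.23, 7.31 and 7.98 in DX2 1, 2 and 3. DX2 2 lay inside the control range, and the difference was 0.78 (SE 0.25, adjusted p = 0.196 by limma).

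Other glycolytic genes were evenly split, 11 of 22 being higher (median difference -0.00061). Bsg, the chaperone of the lactate transporters, read 9.02, 8.90 and 9.28 in controls and 9.72, 9.44 and 9.99 in DX2 1, 2 and 3, a difference of 0.65 (SE 0.17, adjusted p = 0.139 by limma). Slc2a4, the insulin-responsive glucose transporter GLUT4, read 5.23, 5.43 and 5.20 in controls and 6.10, 5.50 and 6.02 in DX2 1, 2 and 3. The groups did not overlap, with DX2 2 just above control 2, and the difference was 0.59 (SE 0.18, adjusted p = 0.177 by limma). Slc16a7, a monocarboxylate transporter, was the only gene of the list lower at an unadjusted p under 0.05, with a difference of -0.41 (SE 0.17). Gapdhs, the sperm form of Gapdh, differed by 0.50 (SE 0.20). Pklr, the pyruvate kinase of liver and red cells, read 5.87, 6.93 and 6.90 in controls and 8.00, 6.64 and 8.03 in DX2 1, 2 and 3. Minpp1, an inositol and bisphosphoglycerate phosphatase, read 9.24, 8.26 and 9.19 in DX2 1, 2 and 3 and 7.47 to 8.28 in controls. For both, as for Hk1, Pfkm and the erythroid markers, DX2 2 lay inside the control range and the other DX2 spleens above it.

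Of the other pentose phosphate genes 4 of 8 were higher (median difference 0.00024). Rpia, which interconverts ribose and ribulose phosphates, read 7.19, 7.56 and 7.24 in controls and 7.93, 7.74 and 7.86 in DX2 1, 2 and 3. Like Pgd it was higher in each DX2 spleen, though with more spread among controls (SD 0.20). Its difference was 0.52 (SE 0.13, adjusted p = 0.133 by limma) and 0.57 without DX2 2. Pgls, which acts between G6pdx and Pgd, differed by -0.16 (SE 0.12). Among the pyruvate dehydrogenase genes 5 of 8 were higher, the smallest p being that of the subunit Dlat at a difference of 0.33 (SE 0.11), whose groups did not overlap.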

How the data were processed

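Total RNA of 6 mouse spleens was hybridised to 1 Affymetrix array each, 3 DX2 and 3 control, grouped by sample title; the labels call them biological replicates. The authors deposited 1 table of 41345 probe sets as log2 expression values (0.771 to 13.3, the log2 scale being inferred from this range), made with RMA per the submitters' processing notes; the sources used here give neither its version nor its software. RMA normalizes arrays to one another and can understate large folds. By the supplied platform annotation 23521 probe sets had 1 symbol, 1814 several and 16010 none, and only the first were used, each gene by the probe set of highest mean.

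The lmFit and eBayes steps of limma 3.58.1 (R 4.3.3), with no covariate or filter, gave the differences, fitted to all 22180 genes and tested on simulated data. The members and lists were chosen with earlier results of these data known. All measured members are named, with a value for every spleen where groups did not overlap or, failing that, for the smallest p of a role group; Slc2a1, Slc16a1, Hk1, Pfkm, Gapdh and Hif1a were added after their values were seen. From each further list up to 6 genes of smallest p could be named. The alternatives left out each array in turn or used a block for the replicate number, removal of the 40% dimmest genes, 2 other scalings, 2 other probe set rules, a mean-variance trend, array weights and a sex term. Same-numbered spleens did not deviate together (correlations across genes of -0.32, -0.14 and 0.07), so the numbers were not taken as pairs. The number of arrays limits the precision (median SE 0.14 over all genes).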

Additional observations from a re-analysis of the deposited data

How the results depend on the processing

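Over the 15 alternatives 18 of the 31 genes kept the sign of their difference, and the 13 others, none past the threshold, turned it in at least 1. With any 1 array left out, the count passing was 0 to 2 (2 without DX2 2), the count at an unadjusted p under 0.05 was 3 to 9 (3 without control 1, 5 without control 3), the count higher 19 to 26, the median difference 0.12 to 0.40, and the paralog pairs without overlap 1 to 5 (2 without control 1 or control 3, 3 without DX2 1, 5 without DX2 2). With a sex term 3 members had an unadjusted p under 0.05 (8.85% of all genes), 23 were higher and the median was 0.32. With array weights 21 were higher and the median was 0.17. With the replicate number as a block 0 passed, 7 had an unadjusted p under 0.05 and the median was 0.28. The cause of these shifts was not tested; fits with fewer arrays or more terms have fewer degrees of freedom. The smallest adjusted p of a member outside the fits without 1 array was 0.064, with array weights. The alternatives for the count at an unadjusted p and for the paralog pairs (each array left out and the other probe set rules only) were chosen after seeing the data.

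The turned differences with all arrays were 0.042 (Pdk1) and 0.057 (Hif1a) with centred arrays, which move the median of all genes to 0.10 and that of the members to 0.37, and 0.020 (Hif1a) with the mean of probe sets. With array weights they were -0.019 (Slc2a3), -0.10 (Pfkp), -0.0018 (Aldoc), 0.042 (Eno3), -0.037 (Egln3) and -0.020 (Bnip3), and with a sex term -0.36 (Slc2a3), -0.075 (Aldoc), -0.072 (Pdha1) and 0.10 (Hif1a). With 1 array left out the ranges were -0.30 to 0.38 (Slc2a3), -0.40 to 0.26 (Hif1a), -0.066 to 0.078 (Aldoc), -0.38 to 0.34 (Pfkp), -0.20 to 0.29 (Pfkfb3), -0.13 to 0.19 (Ldhb), -0.21 to 0.15 (Pdk1), -0.68 to 0.055 (Slc2a1), -0.26 to 0.028 (Eno3), -0.033 to 0.56 (Egln3), -0.012 to 0.43 (Gapdh), -0.0018 to 0.14 (Pdha1) and -0.085 to 0.21 (Bnip3).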
